A study of Homo sapiens with 12 samples.

Results

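The 37 genes of the human mitochondrial genome were examined, out of 60483 genes in the deposited count table. They are every gene that the table places on chrM, a set chosen with earlier results of these data known. They comprise 13 protein genes, 22 transfer RNA (tRNA) genes and 2 ribosomal RNA (rRNA) genes. The filter on low counts kept 30 of them: all 13 protein genes, 15 of the tRNA genes and both rRNA genes. The tRNA genes that did not pass it, MT-TI, MT-TW, MT-TD, MT-TK, MT-TG, MT-TR and MT-TL2, held between 0 and 14 counts per library and are not tested below.

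The mitochondrial genome is a small circle of DNA present in many copies per cell. It is transcribed by its own polymerase into long transcripts that run through many genes, and these are then cut, mostly at the tRNAs, into separate messenger, transfer and ribosomal RNAs. Its proteins are all core subunits of the respiratory chain and of ATP synthase, and they join subunits imported from the nucleus. Erythroid precursors rely on mitochondria for heme synthesis and lose them before the red cell is mature.

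HUDEP-2 is a human erythroid cell line, immortalized from cord blood progenitors, and its RNA was sequenced here. The study asked how loss of MBD2, a protein that binds methylated DNA and belongs to the NuRD chromatin complex, changes expression in such cells. It used 4 groups of 3 libraries each: control cells labelled WT, which carried the scrambled guide sgSCR, and MBD2 knockout cells, each collected before and after erythroid differentiation. Before differentiation both genotypes were labelled early basophilic erythroblast and were kept in SFEM II medium with SCF, EPO, DEX, DOX and L-Glutamine. After it, both were labelled late basophilic erythroblast and had been moved to IMDM with human AB serum, EPO, DOX, insulin, heparin, holo-transferrin and L-Glutamine, so stage and medium cannot be told apart. The labels disagree on the length of differentiation, with 3 days in the extraction protocol and 5 days in the growth protocol. They do not say whether the knockout cells were a single clone or whether replicates were separate cultures, so the p-values reflect library-to-library spread alone. Libraries were made from total RNA with a kit that depletes rRNA and globin mRNA.

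Libraries held 7667997 to 14047498 counts in all. MBD2 itself stood at 75.3 to 78.7 CPM (counts scaled by library size) in control cells before differentiation against 19.8 to 24.5 in knockout cells, and at 58.2 to 61.4 against 14.6 to 16.8 after it. The 7 erythroid identity genes summed (such as KLF1 and ALAS2) were all detected and came to 6443 to 6957 CPM in control cells before differentiation, 6726 to 8068 in knockout cells before it, 7705 to 8211 in control cells after it and 14843 to 15112 in knockout cells after it. Markers of mast cells and basophils, none of 12 at 0, went the other way over the same 4 groups, from 957 to 1011, 749 to 778, 687 to 701 and 387 to 413 CPM. Summed megakaryocyte markers (1 of 10 at 0) held 28.6 to 32.8, 40.8 to 63.1, 16.1 to 19.5 and 26.1 to 31.0 CPM in the same order, higher in knockout libraries at both stages. Summed neutrophil and monocyte markers (none of 10 at 0) held 6.94 to 9.01, 17.4 to 22.5, 3.79 to 4.97 and 3.44 to 5.06 CPM, higher in knockout libraries before differentiation and overlapping after it. Summed markers stayed at or under 1.16 CPM for lymphoid cells (1 of 10 at 0) and 2.03 for stromal and endothelial cells (none of 10 at 0). The part of these shifts in the results below was not tested. In bulk RNA, fewer cells of a type and less of an RNA per cell cannot be told apart.

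The protein genes run from MT-ND1 at chrM:3307-4262 to MT-CYB at chrM:14747-15887 in build hg38, each as 1 exon with no intron. All lie on the plus strand except MT-ND6, at chrM:14149-14673, which lies on the minus strand with 8 of the tRNA genes. Counting used no strand option, so reads from MT-ND6 or these tRNA genes and reads from the opposite strand at those places cannot be told apart. Some neighbours share bases, and a read pair that covers such a stretch could belong to either gene. The longest overlap, chrM:8527-8572 on the plus strand, is shown because the 2 ATP synthase genes cannot be counted apart there. Its first capitals are the start codon of MT-ATP6 and its last capitals the stop codon of MT-ATP8. The overlap of MT-ND4L with MT-ND4, chrM:10760-10766 on the plus strand, is given below it without capitals.
MT-ATP8 and MT-ATP6 overlap: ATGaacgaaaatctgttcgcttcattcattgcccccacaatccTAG
MT-ND4L and MT-ND4 overlap: atgctaa
Copies of mitochondrial genes in the nuclear genome limit the counts in the same way. Windows of 100 bases are shown for the 2 members whose nuclear copies held the most counts, MTND2P28 and MTCO1P12, both on chromosome 1. They were chosen as the windows with the most differing bases, and capitals mark those bases. The windows are chrM:4892-4991 and chr1:630062-630161 for the first pair and chrM:6200-6299 and chr1:631370-631469 for the second, all on the plus strand, and all sequences printed here come from the GENCODE release 29 transcripts of build GRCh38.
MT-ND2: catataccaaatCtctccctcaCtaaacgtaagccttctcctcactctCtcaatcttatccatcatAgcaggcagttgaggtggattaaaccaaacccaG
MTND2P28: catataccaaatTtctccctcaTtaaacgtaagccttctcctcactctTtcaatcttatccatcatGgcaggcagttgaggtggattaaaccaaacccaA
MT-CO1: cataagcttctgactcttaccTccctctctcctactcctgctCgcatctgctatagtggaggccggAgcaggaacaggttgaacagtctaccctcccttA
MTCO1P12: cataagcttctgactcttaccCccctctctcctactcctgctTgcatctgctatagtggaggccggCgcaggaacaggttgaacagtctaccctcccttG
Even these windows differ at only 5 and 4 bases, and the longest runs with no difference are 266 bases for MT-ND2 and 245 bases for MT-CO1. A read inside such a run carries no base that tells the 2 places apart. Over their aligned length, MTND2P28 is 98.4% identical to MT-ND2 and MTCO1P12 is 98.7% identical to MT-CO1. Summed over the 12 libraries, MTND2P28 held 80.1% as many counts as MT-ND2, and MTCO1P12 held 40.3% as many as MT-CO1. MTATP6P1 followed with 26.4% of the counts of MT-ATP6, and 7 other copies held between 2.59% and 10.7% of those of their parent. How reads that map to both places were assigned is not given in the sources used here. The levels of MT-ND2, MT-CO1 and MT-ATP6 are therefore the most uncertain among the protein genes. Each edgeR test of a mitochondrial gene below was repeated with the counts of the copies added to the member. The levels per kilobase, the make-up by complex and the shares of counts were not repeated in that way.

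Per kilobase of gene, the messages for cytochrome c oxidase (complex IV, which passes electrons to oxygen) were the most abundant in every group. In control cells before differentiation MT-CO3 led with 1941 ± 104 CPM per kilobase (SD, n = 3), followed by MT-CO1 with 1755 ± 196, MT-CO2 with 1325 ± 224 and MT-ND3 with 556 ± 90.7. MT-CO3 and MT-CO1 overlapped there, while MT-CO2 lay below MT-CO1 and above MT-ND3 in every library. Between these and the lowest came MT-ND4L with 363, MT-CYB with 329, MT-ND4 with 283, MT-ATP6 with 280, MT-ND5 with 210, MT-ND1 with 133, MT-ND2 with 88.9 and MT-ATP8 with 86.4 CPM per kilobase. Neighbours in that order overlapped at MT-ND4L and MT-CYB, at MT-ND4 and MT-ATP6, and at MT-ND2 and MT-ATP8. MT-ND6 had the lowest mean in all 4 groups, at 50.8 ± 1.38 CPM per kilobase in control cells before differentiation. It lay apart from the next message there, but overlapped MT-ND2 in knockout cells before differentiation and MT-ATP8 in both genotypes after it. After differentiation in control cells MT-CYB moved from the sixth place to the fourth, at 839 ± 157 CPM per kilobase, where it overlapped MT-ND3 at 811 ± 158 and so was not distinct from it. The first 3 places were MT-CO3, MT-CO1 and MT-CO2 in each of the 4 groups.

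In control cells, differentiation raised 11 of the 13 mitochondrial messages (edgeR quasi-likelihood test, Benjamini-Hochberg adjusted p under 0.05). The 5 largest rises were in MT-ND1, MT-ND2, MT-ND5 and MT-ND4 of NADH dehydrogenase (complex I, the entry point for electrons from NADH) and in MT-CYB, which encodes cytochrome b. Over all genes tested, 21.5% were called higher in this comparison. The median log2 fold change was 1.01 over the 13, beside 0.01 over all genes, and their summed level went from 7034 ± 457 to 10729 ± 1422 CPM (SD, n = 3). The 11 messages called were also those whose 3 libraries after differentiation all lay above the 3 before, which held for 26.8% of all genes.

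**Figure D1:**
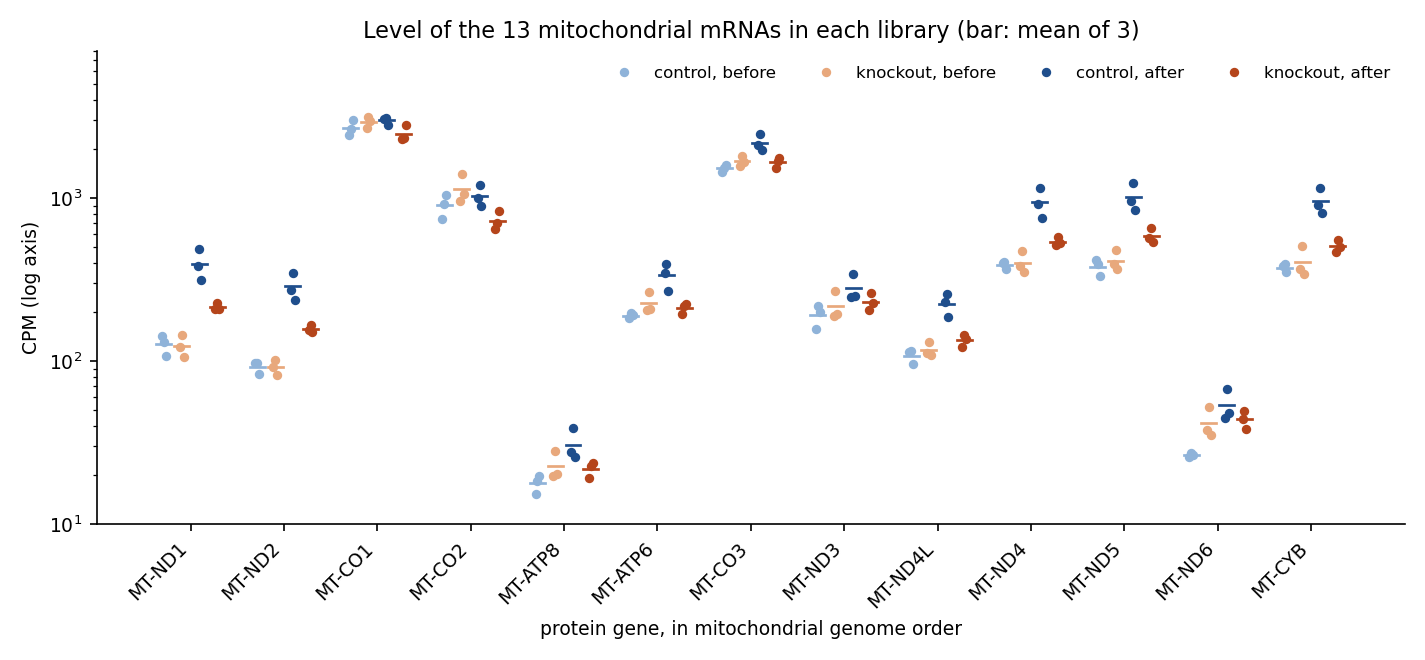
Level of each mitochondrial message in CPM on a log axis, in mitochondrial genome order, with 1 point per library and a bar at the mean of 3. After differentiation the control libraries lie above the knockout libraries for MT-ND1 (312 to 488 against 210 to 227 CPM) and MT-CYB (814 to 1158 against 464 to 556), whereas the 4 groups lie close together for MT-CO1.

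Among the complex I subunits, MT-ND1 held 142, 131 and 107 CPM before differentiation in control libraries and 381, 488 and 312 after it. MT-ND2 went from 97.5, 97.2 and 83.4 to 274, 350 and 237 CPM. All libraries after differentiation lay far above those before for both genes, which encode core subunits of the membrane arm. The log2 fold change was 1.64 ± 0.14 (SE) for MT-ND1 (edgeR adjusted p = 8.60e-08) and 1.63 ± 0.12 for MT-ND2 (edgeR adjusted p = 8.06e-09), which are rises of 3.11-fold and 3.10-fold. MT-ND5, another pump subunit of the membrane arm, held 415, 395 and 331 CPM before and 964, 1233 and 843 after. MT-ND4, its neighbour in the arm, held 400, 406 and 365 before and 920, 1156 and 758 after. The libraries did not overlap for either gene, and the log2 fold changes were 1.41 ± 0.13 and 1.28 ± 0.13 (edgeR adjusted p = 2.07e-07 and 4.91e-07). MT-ND4L, which is read from the same message as MT-ND4, rose by 1.06 ± 0.11. MT-ND6 rose by 1.01 ± 0.16 and MT-ND3 by 0.54 ± 0.15, the smallest rise of the complex I genes. The call for MT-ND3 rested on 1 library: without control replicate 2 after differentiation it was 0.37 with an edgeR adjusted p of 0.0573.

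MT-CYB, the only mitochondrial subunit of the bc1 complex (complex III), held 382, 393 and 350 CPM before differentiation and 900, 1158 and 814 after in control cells. No library overlapped, and the log2 fold change was 1.35 ± 0.14 (edgeR adjusted p = 5.52e-07). The 2 mitochondrially encoded subunits of ATP synthase rose less. MT-ATP6 held 183, 197 and 191 CPM before and 345, 395 and 270 after, a log2 fold change of 0.82 ± 0.12 (edgeR adjusted p = 2.42e-05). MT-ATP8 went from 15.3, 18.5 and 19.9 to 27.7, 38.7 and 25.9 CPM, a log2 fold change of 0.79 ± 0.16 (edgeR adjusted p = 0.000741). Both were higher in every library after differentiation.

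The complex IV messages moved least. MT-CO3 rose from 1441, 1521 and 1604 to 2121, 2455 and 1971 CPM, a log2 fold change of 0.52 ± 0.09 (edgeR adjusted p = 0.000153), with no overlap. MT-CO1, the catalytic subunit, held 2426, 2665 and 3026 CPM before and 3046, 3099 and 2821 after. MT-CO2, which receives electrons from cytochrome c, held 744, 924 and 1049 before and 1000, 1210 and 896 after. The libraries of the 2 stages overlapped for both, and neither passed the test, with log2 fold changes of 0.14 ± 0.10 (edgeR adjusted p = 0.241) and 0.19 ± 0.15 (edgeR adjusted p = 0.31).

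In knockout cells, differentiation raised 4 of the 13 messages, all of complex I (MT-ND1, MT-ND2, MT-ND4 and MT-ND5), and lowered MT-CO1 and MT-CO2 of complex IV. Over all genes tested, 28.0% were called higher, a share near that of the messages, and 27.7% lower, a larger share than that of the messages. The median log2 fold change was 0.09 over the 13 beside 0.03 over all genes. MT-ND1 stood at 122, 145 and 107 CPM before and 210, 227 and 210 after, and MT-ND2 at 91.7, 102 and 82.6 before and 155, 166 and 150 after. Neither gene's stages overlapped, which held in that direction for 30.3% of all genes, and their log2 fold changes were 0.79 ± 0.14 and 0.77 ± 0.12 (edgeR adjusted p = 1.37e-04 and 2.42e-05). MT-ND5 went from 394, 478 and 367 to 572, 656 and 535 CPM, and MT-ND4 from 381, 476 and 351 to 514, 575 and 531. Each gene's libraries after differentiation lay above those before it, by 0.51 ± 0.13 and 0.42 ± 0.13 on the log2 scale (edgeR adjusted p = 0.00312 and 0.00896). The rise of MT-ND4 did not pass the test when libraries were scaled by their sizes alone (0.24, edgeR adjusted p = 0.122).

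MT-CO2 held 960, 1404 and 1063 CPM in knockout cells before differentiation and 647, 707 and 828 after it. All libraries after lay below all before, as for 29.7% of all genes, and MT-CO2 fell by 0.65 ± 0.15 on the log2 scale (edgeR adjusted p = 0.00117). MT-CO1 fell by 0.24 ± 0.10, from 2686, 3119 and 2977 to 2302, 2349 and 2800 CPM (edgeR adjusted p = 0.0435), but its stages overlapped. That call was lost without any of 6 single libraries: control replicate 2 before differentiation (-0.23, adjusted p = 0.0596), knockout replicates 2 and 3 before it (-0.19 and -0.22, 0.127 and 0.0938), control replicate 1 after it (-0.23, 0.0612) and knockout replicates 1 and 2 after it (-0.19 and -0.20, 0.166 and 0.141). The other 7 messages did not pass the test, with log2 fold changes from -0.10 for MT-ATP6 to 0.32 ± 0.14 for MT-CYB. MT-CYB was close to the threshold (edgeR adjusted p = 0.0546) and passed it without knockout replicate 2 before differentiation, at 0.51 (0.00149), and in 8 other alternatives.

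Before differentiation, knockout and control cells held similar amounts of the mitochondrial messages, with summed levels of 7819 ± 870 and 7034 ± 457 CPM. Only MT-ND6 passed the test, as higher in knockout cells, beside 9.07% of all genes called higher. MT-ND6 encodes the complex I subunit on the minus strand, and it held 38, 52.6 and 35.4 CPM in knockout libraries against 26, 27.4 and 26.6 in control libraries. The 2 groups did not overlap, as for 15.3% of all genes in that direction, and the log2 fold change was 0.65 ± 0.16 (edgeR adjusted p = 0.00797). It passed in every alternative run. With no filter MT-CO2 (0.33, adjusted p = 3.21e-04) and MT-ATP6 (0.26, 0.0243) passed as higher too. The other 12 had log2 fold changes between -0.02 ± 0.14 for MT-ND1 and 0.34 ± 0.16 for MT-ATP8. The median over the 13 was 0.12, beside -0.00 over all genes.

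After differentiation, 11 of the 13 messages were lower in knockout than in control cells, while 16.3% of all genes tested were called lower. Because most messages are cut from shared long transcripts, the calls on them are not independent of each other, here and in the other comparisons. The median log2 fold change was -0.67 over the 13 and -0.01 over all genes. All 13 values lay below 0, and the 11 called were also those whose groups did not overlap, which held in that direction for 23.6% of all genes. MT-CYB held 464, 556 and 503 CPM in knockout libraries, against the 900, 1158 and 814 of the control libraries. It had the largest difference, a log2 fold change of -0.91 ± 0.14 (edgeR adjusted p = 5.22e-05), at 0.530 of the control level. MT-ND1 and MT-ND2 had log2 fold changes of -0.87 ± 0.14 and -0.87 ± 0.11 (edgeR adjusted p = 1.06e-04 and 1.29e-05). MT-ND4 was at -0.81 ± 0.13, MT-ND5 at -0.79 ± 0.13 and MT-ND4L at -0.74 ± 0.11, so 5 of the 7 complex I messages lay between 0.547 and 0.597 of the control level.

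MT-ATP6 held 194, 218 and 224 CPM in knockout libraries after differentiation, below each of the 345, 395 and 270 CPM in control libraries (log2 fold change -0.67 ± 0.12, edgeR adjusted p = 2.71e-04). MT-CO3 held 1528, 1687 and 1767 CPM, below each of the control values of 2121, 2455 and 1971 (-0.39 ± 0.09, edgeR adjusted p = 0.00232). These messages, with MT-ND1, MT-ND2, MT-ND4L, MT-ND4, MT-ND5 and MT-CYB, make up the 8 that passed without each library in turn and in every other alternative run. MT-CO2, MT-ATP8 and MT-CO1 passed less firmly, with log2 fold changes of -0.51 ± 0.15, -0.51 ± 0.16 and -0.27 ± 0.10 (edgeR adjusted p = 0.0125, 0.0244 and 0.0395). For MT-CO1 the groups nearly touched, at 2800 CPM in knockout replicate 3 and 2821 in control replicate 3.

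Single libraries decided these last 3 calls. Without control replicate 2 after differentiation, which was the highest control library at that stage for all 13 messages, MT-CO2 was at -0.38 (edgeR adjusted p = 0.0722), MT-ATP8 at -0.30 (0.18) and MT-CO1 at -0.24 (0.112). Without knockout replicate 1 after differentiation they were at -0.43 (0.0674), -0.42 (0.114) and -0.21 (0.161). MT-CO1 also missed the threshold without knockout replicate 2 (-0.23, 0.139) or control replicate 1 (-0.25, 0.108) after differentiation or control replicate 2 before it (-0.26, 0.0552), and MT-ATP8 without knockout replicate 2 after it (-0.54, 0.05). MT-ND3 and MT-ND6, which did not pass, had log2 fold changes of -0.28 ± 0.15 and -0.29 ± 0.15 (edgeR adjusted p = 0.173 and 0.171). Both passed as lower when libraries were scaled by their sizes alone, at -0.43 (0.0387) and -0.44 (0.0319). That scaling moved the median of all genes to -0.17 in this comparison. With TMM scaling and no filter on low counts they passed as well, at -0.30 (0.00219) and -0.31 (0.0154).

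The change with differentiation differed between the genotypes for most of these messages. Taking the knockout effect after minus that before differentiation, 11 of 13 passed the test and all 11 were below 0, while 6.68% of all genes were called lower in this contrast. The median over the 13 was -0.85, beside -0.01 over all genes. MT-CYB had the largest value, -1.03 ± 0.19 (edgeR adjusted p = 0.00183). MT-ND6 followed at -0.94 ± 0.22 (edgeR adjusted p = 0.00916), with its higher level in knockout cells before differentiation and its value of -0.29 after it. MT-CO1 (-0.38 ± 0.13) and MT-ND3 (-0.45 ± 0.21) did not pass (edgeR adjusted p = 0.0735 and 0.186). With no filter both passed, at -0.41 (0.00284) and -0.47 (0.00142). MT-CO1 also passed at -0.47 (0.0251) once the counts of its nuclear copy were added, at -0.51 (0.0281) with libraries scaled by their sizes alone and at -0.39 (0.0282) with DESeq2. It passed without knockout replicate 1 (-0.43, 0.0461) or control replicate 3 (-0.46, 0.0284) before differentiation and without knockout replicate 3 after it (-0.48, 0.0259). MT-ATP8 (-0.85) missed the threshold without any of 4 single libraries, at -0.74 (0.0573) without control replicate 1 before differentiation, -0.66 (0.0519) without knockout replicate 2 before it, -0.64 (0.0666) without control replicate 2 after it and -0.76 (0.0691) without knockout replicate 1 after it.

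**Figure D2:**
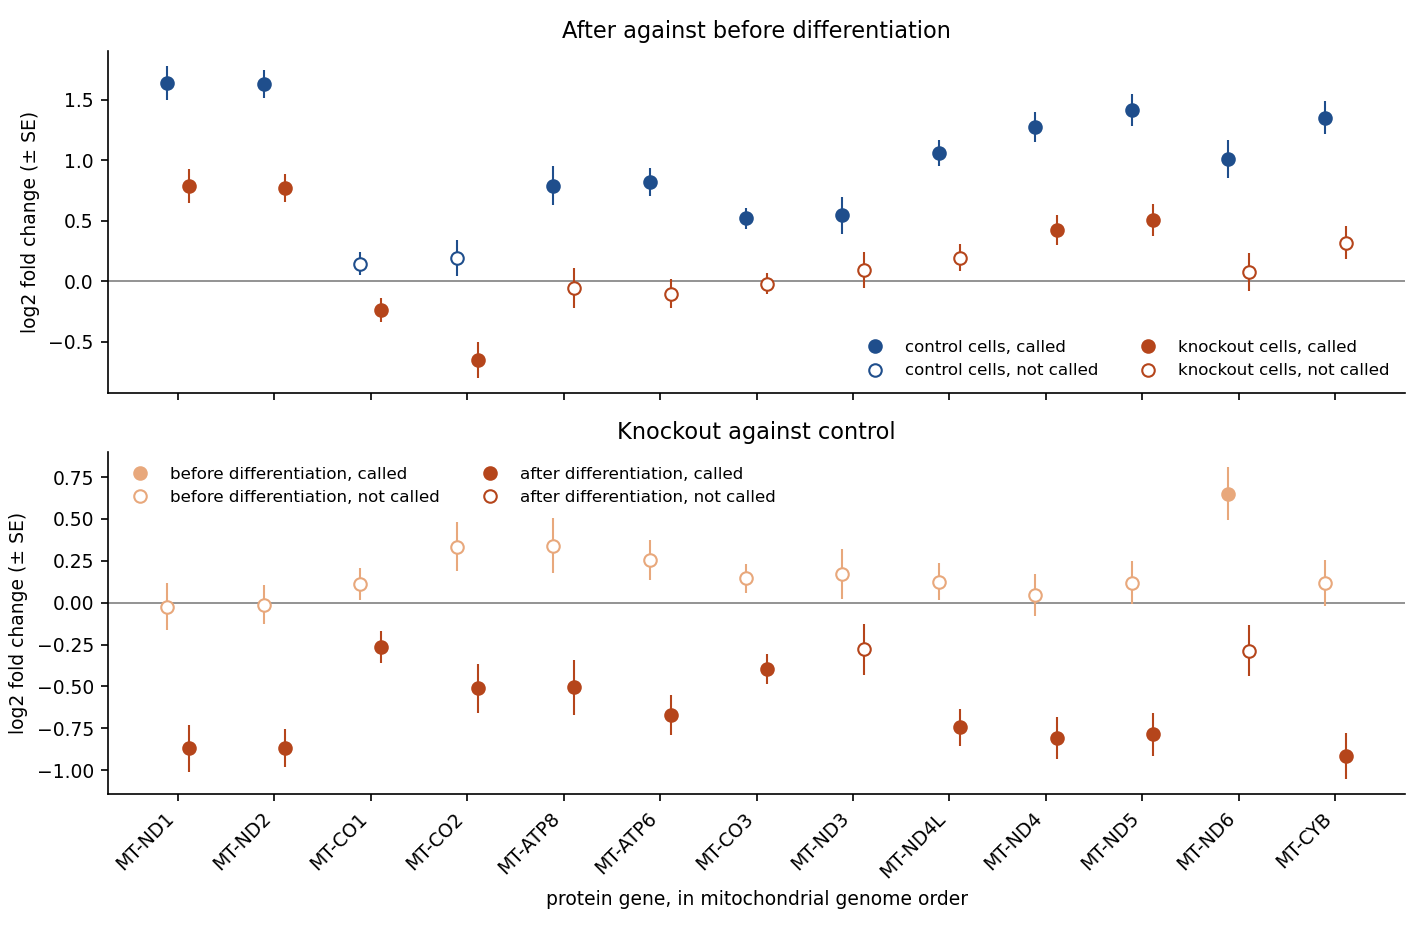
Log2 fold change of the 13 mitochondrial messages, with bars of 1 SE and filled points where the edgeR adjusted p was under 0.05. Differentiation gave values up to 1.64 in control cells and up to 0.79 in knockout cells, and the knockout effect after differentiation lay below 0 for all 13.

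Summed by complex, the make-up of the mitochondrial message pool shifted with differentiation in both genotypes, from complex IV towards complex I and cytochrome b. Complex IV messages made up 70.5, 71.9 and 76.2% of the counts of the 13 in control libraries before differentiation and 58.7, 55.2 and 60.3% after. In knockout libraries they made up 73.1, 72.1 and 75.8% before and 64.2, 62.2 and 67.7% after. Within each genotype the stages did not overlap, and after differentiation the knockout libraries all lay above the control libraries. The differences were -14.8 percentage points with differentiation in control cells, -8.96 in knockout cells and 6.61 between knockout and control after differentiation. Complex I messages moved the opposite way, from 18.8 ± 2.31 to 29.6 ± 1.97% in control cells and from 18 ± 1.24 to 25.5 ± 2.26% in knockout cells (SD, n = 3). The share of MT-CYB went from 5.36 ± 0.591 to 8.88 ± 0.493% in control and from 5.17 ± 0.598 to 6.76 ± 0.503% in knockout cells. ATP synthase messages made up 2.84 to 3.04% in control libraries before differentiation and 3.14 to 3.55% after, without overlap, and the 3.05 to 3.35% in knockout libraries before it lay above the control libraries at that stage. Each of these separated comparisons gave an exact two-sided permutation p of 0.1, the smallest that 3 against 3 libraries allow, and 0.145 after Benjamini-Hochberg adjustment over the 16 comparisons by complex. Not every message followed its complex. With differentiation the MT-ND3 share was 2.73% before and 2.61% after in control cells, and the MT-CO3 share 21.6% before and 22.1% after in knockout cells, both with overlap. After differentiation MT-ND3 held 3.08% in knockout and 2.61% in control cells, without overlap, opposite to complex I as a whole (permutation p = 0.1, adjusted 0.168 over 52 comparisons by message).

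**Figure D3:**
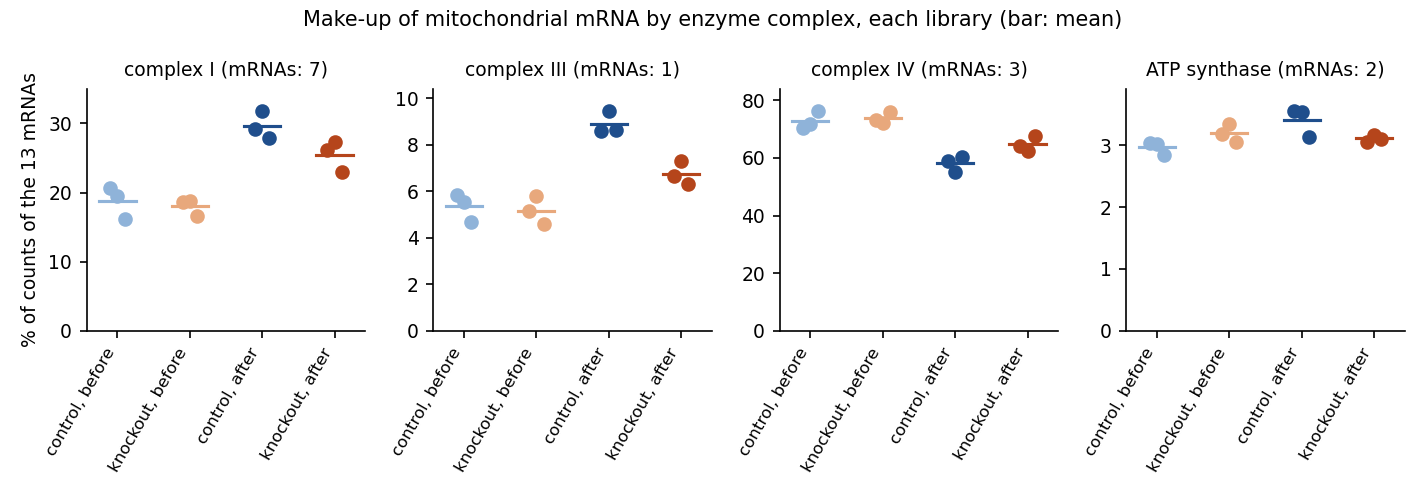
Share of the counts of the 13 mitochondrial messages held by each complex, in percent, with 1 point per library and a bar at the mean of 3. The complex IV share lies between 70.5 and 76.2% in all libraries before differentiation and between 55.2 and 67.7% after it.

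The tRNA genes gave few counts. Mature tRNAs are short and heavily modified, and the counting does not tell them from precursor transcripts. Among the 15 tested, 7 rose with differentiation in control cells (MT-TF, MT-TL1, MT-TQ, MT-TM, MT-TS1, MT-TH and MT-TT), beside 21.5% of all genes called higher. By edgeR none fell, beside 22.3% of all genes, and none had an unadjusted p under 0.05 in that direction or was called lower with DESeq2. In knockout cells 6 rose (MT-TF, MT-TV, MT-TL1, MT-TM, MT-TH and MT-TT) and MT-TP fell, beside 28.0% of all genes called higher and 27.7% lower. Over messages and tRNA genes together this made 10 higher and 3 lower, or 8 and 4 with libraries scaled by their sizes alone. The genes for 4 tRNAs are shown 5′ to 3′, because they moved most or in opposite ways, with the anticodon in capitals: MT-TM (methionine) at chrM:4402-4469 and MT-TH (histidine) at chrM:12138-12206 on the plus strand, MT-TS1 (serine) at chrM:7446-7514 and MT-TP (proline) at chrM:15956-16023 on the minus strand.
MT-TM: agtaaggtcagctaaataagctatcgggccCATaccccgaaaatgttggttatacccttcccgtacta
MT-TH: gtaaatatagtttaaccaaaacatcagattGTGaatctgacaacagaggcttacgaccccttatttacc
MT-TS1: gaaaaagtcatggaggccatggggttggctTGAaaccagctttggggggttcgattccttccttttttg
MT-TP: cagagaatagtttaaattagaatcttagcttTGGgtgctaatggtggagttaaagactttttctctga
MT-TM held 6.47, 4.33 and 2.57 CPM in control libraries before differentiation and 8.63, 19.9 and 10.2 after it. MT-TH held 5.63, 4.88 and 2.67 before and 9.56, 16.9 and 10.6 after. The stages did not overlap, and the log2 fold changes were 1.56 ± 0.34 and 1.5 ± 0.30 (edgeR adjusted p = 0.0014 and 6.09e-04). In knockout cells MT-TH rose from 4.84, 4.22 and 2.17 to 9.26, 13 and 6.47 CPM (1.35 ± 0.32, edgeR adjusted p = 0.00181), and MT-TM was at 1.13 ± 0.35. MT-TP, which gave the most counts of the tRNA genes in every library, held 155, 136 and 133 CPM in knockout libraries before differentiation and 108, 112 and 86.0 after. It fell by 0.47 ± 0.13 on the log2 scale (edgeR adjusted p = 0.00592) with no overlap.

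Few tRNA genes passed the test between genotypes. By edgeR none of the 15 passed before differentiation, where 17.2% of all genes were called in either direction. None of them had an unadjusted p under 0.05 there, and DESeq2 called none. With the replicate number added to the edgeR model as a block, MT-TN (-0.37, adjusted p = 0.0436) and MT-TC (-0.38, 0.0281) passed as lower. After differentiation only MT-TS1 passed, as lower in knockout cells, whereas MT-TP (-0.42, adjusted p = 0.0138) and MT-TT (-0.97, 0.0365) also passed as lower with libraries scaled by their sizes alone. With no filter MT-TP (-0.28, 0.00923), MT-TY (-0.46, 0.00354) and MT-TA (-0.58, 0.0194) passed as lower, and with only the 2 groups compared MT-TP (-0.26, 0.041) and MT-TY (-0.45, 0.0423). MT-TS1 held 1.06, 1.18 and 0.703 CPM in knockout libraries against 1.88, 2.69 and 2.84 in control libraries. The groups were apart although the counts were low, and the log2 fold change was -1.30 ± 0.32 (edgeR adjusted p = 0.00491). The median over the 15 was -0.26. By edgeR none of the 15 had a knockout effect that differed between stages, where 6.28% of all genes were called higher and 6.68% lower, none had an unadjusted p under 0.05, and DESeq2 called none.

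Calls with differentiation that held without each library in turn were those of MT-TM, MT-TH and MT-TT in control cells and of MT-TH and MT-TP in knockout cells. In control cells MT-TF, MT-TL1, MT-TQ and MT-TS1 lost theirs without control replicate 2 after differentiation (0.59, 0.85, 0.55 and 0.75, edgeR adjusted p = 0.139, 0.177, 0.233 and 0.0872) and without control replicate 3 before it (0.68, 0.77, 0.79 and 0.76, 0.0565, 0.0976, 0.0819 and 0.0661). MT-TL1 and MT-TQ also lost theirs without control replicate 2 before differentiation (1.16 and 0.82), and MT-TS1 without control replicate 1 before it (0.79) or control replicate 3 after it (0.73). In knockout cells, MT-TF, MT-TV, MT-TL1, MT-TM and MT-TT lost theirs without knockout replicate 2 after differentiation (0.90, 0.76, 0.94, 0.88 and 1.06, edgeR adjusted p = 0.062, 0.0754, 0.157, 0.0813 and 0.121). The calls on MT-TL1, MT-TM and MT-TT were also lost without knockout replicate 3 before differentiation (1.13, 0.88 and 1.12), that on MT-TL1 without knockout replicate 2 before it (1.21), and that on MT-TT without knockout replicate 1 before it (1.27) or after it (1.31). With DESeq2 the calls on MT-TL1 (1.17, adjusted p = 0.126) and MT-TS1 (0.84, 0.0842) in control cells and on MT-TL1 (1.34, 0.0638) and MT-TT (1.27, 0.0857) in knockout cells were lost, and that on MT-TT in knockout cells also with libraries scaled by their sizes alone (1.08, 0.056) and with no filter (1.21, 0.0801).

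Other tRNA genes gained a call with differentiation. In control cells MT-TV passed as higher with no filter (0.74, adjusted p = 2.13e-10), with only the 2 groups compared (0.78, 0.0399) and without any of 5 single libraries, from 1.11 (0.0128) without control replicate 1 before differentiation and 0.96 (0.0344) without control replicate 1 after it to 0.76 (0.045 and 0.0461) without knockout replicates 1 and 3 before it and 0.77 (0.0466) without knockout replicate 2 after it. MT-TP passed as lower without control replicate 3 before differentiation (-0.32, 0.0192), and MT-TA passed as higher with no filter (0.50, 0.0295). In knockout cells MT-TQ passed as higher with no filter (0.71, 0.0244) and without knockout replicate 2 before differentiation (1.0, 0.0302), control replicate 2 after it (0.75, 0.0463) or knockout replicate 3 after it (1.02, 0.0124). MT-TY passed as lower with no filter (-0.51, 5.27e-04), with libraries scaled by their sizes alone (-0.64, 0.0315) and without knockout replicate 3 before differentiation (-0.66, 0.0253). MT-TC passed as higher with no filter (0.36, 0.031) and without knockout replicate 2 after differentiation (0.63, 0.0395), and MT-TS2 with no filter (0.58, 0.027).

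Split by strand, a grouping made after the values were seen, the median log2 fold change with differentiation was 1.19 for 7 plus-strand and 0.35 for 8 minus-strand tRNA genes in control cells, and 1.13 and 0.19 in knockout cells. Their ranges overlapped in both genotypes, from 0.31 to 1.56 and from -0.15 to 0.89 in control cells. Since counting used no strand option, the split follows the annotated gene and does not show from which strand the reads came.

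The 2 rRNA genes are described apart because the kit removes rRNA, so that their counts are what escaped removal. MT-RNR1, the small-subunit rRNA at chrM:648-1601, held 1683, 495 and 336 CPM in control libraries before differentiation, 1276, 688 and 1117 in knockout libraries before it, 559, 573 and 1052 in control libraries after it and 3646, 1935 and 1390 in knockout libraries after it. MT-RNR2, the large-subunit rRNA, held 8738, 2804 and 1943, then 6624, 2957 and 5742, then 4272, 5618 and 8310, and then 20958, 11261 and 10032 CPM in the same order. Within a group the libraries spread by up to 5.01-fold for these genes and by at most 1.56-fold for a message. After differentiation both passed as higher in knockout cells, opposite to the messages, with log2 fold changes of 1.68 ± 0.47 and 1.22 ± 0.44 (edgeR adjusted p = 0.0106 and 0.0424), where 16.8% of all genes were called higher. For both genes the groups were apart, as for 23.2% of all genes in that direction. With differentiation in knockout cells they rose by 1.18 ± 0.46 and 1.46 ± 0.44 (edgeR adjusted p = 0.0394 and 0.00969).

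None of these 4 rRNA calls held without each library in turn. Without knockout replicate 1 after differentiation, the library with the most rRNA, the differences between genotypes were 1.19 (edgeR adjusted p = 0.0764) and 0.81 (0.217), and those with differentiation in knockout cells 0.69 (0.244) and 1.06 (0.0679). After differentiation MT-RNR2 also missed the threshold between genotypes with DESeq2 (1.2, adjusted p = 0.142), with libraries scaled by their sizes alone (1.05, 0.0624) and without control replicate 1 after differentiation (1.02, 0.157), and so did MT-RNR1 without the same library (1.52, 0.0534). The MT-RNR2 call was lost as well without control replicate 2 (1.16, 0.103) or knockout replicate 2 (1.35, 0.0515) after differentiation or knockout replicate 3 before it (1.22, 0.0508). In knockout cells the rise of MT-RNR1 missed it without knockout replicates 2 (0.96, 0.125) or 3 (1.25, 0.0715) before differentiation, with DESeq2 (1.17, 0.132) and with libraries scaled by their sizes alone (0.98, 0.0727). Without control replicate 1 before differentiation, both were called higher in knockout cells at that stage, at 1.3 (0.0243) and 1.1 (0.0476), and MT-RNR2 was called higher with differentiation in control cells, at 1.35 (0.00535). The knockout effects on MT-RNR1 and MT-RNR2 at the stages differed by 1.38 and 1.03 and did not pass (edgeR adjusted p = 0.185 and 0.309), but the first passed at 1.77 (0.0466) without control replicate 3 before differentiation. With no filter both passed, at 1.35 (2.28e-33) and 1.00 (8.19e-22). That setting also called MT-RNR1 higher in knockout cells before differentiation (0.31, 0.00125), where its control libraries spread by 5.01-fold. In control cells it called MT-RNR1 lower (-0.22, 0.0195) and MT-RNR2 higher (0.41, 4.02e-08) with differentiation. A pass with no filter alone therefore carries less weight, here and above. Other transcripts that the kit removes held larger mean shares in knockout cells after differentiation. Nuclear rRNA genes held 0.122% of counts in control and 0.900% in knockout cells, with no overlap, and globin genes 0.182 and 0.648%, with overlap. In each of the 4 groups the library with the highest mitochondrial rRNA share also had the highest globin share, but in none did it have the highest share of nuclear rRNA. Control replicate 1 before differentiation had a mitochondrial rRNA share of 1.06% and the lowest nuclear rRNA share of all libraries, 0.0235%. The part of removal in the rRNA difference was not tested.

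As shares of all counts in a library, the 13 messages made up 0.737 ± 0.0643% in control cells before differentiation, 0.806 ± 0.0984% in knockout cells before it, 1.08 ± 0.141% in control cells after it and 0.683 ± 0.0636% in knockout cells after it (SD, n = 3). The control libraries after differentiation, at 1.07, 1.23 and 0.949%, lay above all 9 others. The 22 tRNA genes together made up 0.0199 to 0.0332% and overlapped in every comparison. The rRNA genes ranged from 0.243 to 2.17%. For the messages, both the knockout difference after differentiation and the rise in control cells gave an exact two-sided permutation p of 0.1, and 0.3 after adjustment over 12 comparisons.

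**Figure D4:**
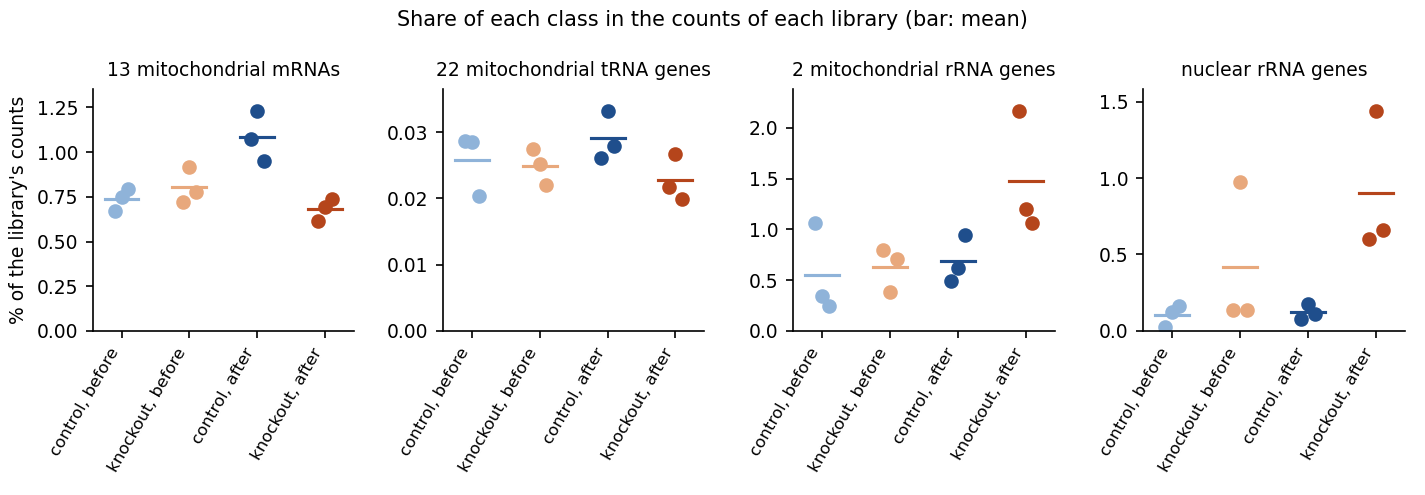
Share of a library's counts in percent for each class, with 1 point per library and a bar at the mean of 3. The messages are highest in control libraries after differentiation (0.949 to 1.23%), and mitochondrial rRNA holds 1.06 to 2.17% in knockout libraries after differentiation, above the control libraries at that stage (0.494 to 0.941%).

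Adding the counts of the nuclear copies to their parents left all 11 messages lower in knockout cells after differentiation and made no other change to the calls on messages except the one on MT-CO1 given above. All 387 nuclear copies recognised by gene name, not only those listed above, together held 0.138, 0.148, 0.192 and 0.112% of counts. These are the means in control cells before differentiation, knockout cells before it, control cells after it and knockout cells after it.

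The nuclear genes whose products join the mitochondrial ones mostly fell with differentiation. Of 72 nuclear subunits of complexes I, III and IV and ATP synthase tested, 3 rose and 40 fell with differentiation in control cells, with a median log2 fold change of -0.24, while 21.5% of all genes were called higher and 22.3% lower. In knockout cells 1 rose and 51 fell, with a median of -0.40, beside 28.0% and 27.7% of all genes. Before differentiation 9 were higher and 4 lower in knockout cells (median 0.11), where 9.07% of all genes were called higher and 8.15% lower. After it 13 were lower, a share near the 16.3% of all genes, and, by edgeR, none higher (median -0.06), with 1 at an unadjusted p under 0.05 in that direction and none called higher with DESeq2. ATP5F1A, a catalytic-head subunit of ATP synthase, was lower in knockout cells at both stages, at -0.39 before and -0.49 after (edgeR adjusted p = 2.77e-04 and 1.03e-05). The 9 subunits called higher before differentiation are not named here. Complex II has nuclear subunits only. Of its 4 genes, 2 were higher in knockout cells after differentiation and 2 did not pass, beside 16.8% of all genes called higher. One of these calls, on SDHA, was lost with libraries scaled by their sizes alone (0.24, edgeR adjusted p = 0.16).

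Among 8 genes for mitochondrial transcription, TFB1M, a methyltransferase of the small rRNA, was lower in knockout cells at both stages, with log2 fold changes of -0.49 ± 0.07 and -0.55 ± 0.08 (edgeR adjusted p = 1.57e-04 and 3.79e-05). POLRMT, the mitochondrial RNA polymerase, was at 0.44 ± 0.13 before differentiation (edgeR adjusted p = 0.0318) and at -0.34 ± 0.14 after it (0.0833), and the difference between these passed the test at -0.77 ± 0.20 (0.0143). Its call before differentiation was lost at 0.23 (0.179) without knockout replicate 2, at 0.36 (0.136) without control replicate 1, at 0.40 (0.116) without control replicate 2 before differentiation, at 0.41 (0.0609) with libraries scaled by their sizes alone and at 0.44 (0.0898) with only the 2 groups compared. After differentiation POLRMT passed as lower without knockout replicate 2 before it (-0.33, 0.0173), with that scaling (-0.49, 0.0172), with no filter (-0.36, 0.00768) and with only the 2 groups compared (-0.34, 0.00912). TFAM, which packages mitochondrial DNA and starts its transcription, did not pass between genotypes (-0.06 and -0.17, edgeR adjusted p = 0.66 and 0.0932) and fell with differentiation by 0.83 ± 0.07 in control and 0.94 ± 0.07 in knockout cells (1.07e-07 and 1.30e-08). TFAM passed as lower in knockout cells after differentiation with libraries scaled by their sizes alone (-0.33, 0.00211), with only the 2 groups compared (-0.17, 0.0328) and without knockout replicate 2 before it (-0.17, 0.0491). LRPPRC, which stabilizes mitochondrial messages, was at 0.12 and -0.11 between genotypes (0.229 and 0.203), the second passing at -0.27 (0.00367) with that scaling, and fell with differentiation by 0.38 and 0.61.

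Among 32 genes for mitochondrial RNA processing and stability, 5 were higher in knockout cells before differentiation and 9 lower after it. The counts in these lists stand beside 9.07% of all genes higher and 8.15% lower before differentiation and 16.8% higher and 16.3% lower after it. The genes named below from these lists were all lower in knockout cells after differentiation, while the counts also hold genes called higher. TRNT1, which adds the CCA end to tRNAs, was at -0.51 ± 0.09 after differentiation (edgeR adjusted p = 2.29e-04). The mitochondrial ribosome showed 14 of 78 proteins higher and 2 lower before differentiation, and 2 higher and 15 lower after, the last a share near that of all genes. MRPS26 of its small subunit had the largest value, -0.80 ± 0.10 after differentiation (edgeR adjusted p = 5.39e-06). Of 22 mitochondrial aminoacyl-tRNA synthetase genes, which charge the tRNAs, 9 were lower in knockout cells after differentiation. By edgeR none passed before it, where 3 had an unadjusted p under 0.05 and DESeq2 called none. Among 18 genes for mitochondrial DNA maintenance, 2 were higher and 2 lower before and 4 lower after. TK2, a mitochondrial thymidine kinase, was lower at both stages, at -0.69 ± 0.14 and -1.04 ± 0.16 (edgeR adjusted p = 0.0025 and 9.61e-05). Among 6 regulators of mitochondrial biogenesis tested, 2 were lower after differentiation, with GABPA at -0.52 (0.0019).

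**Figure D5:**
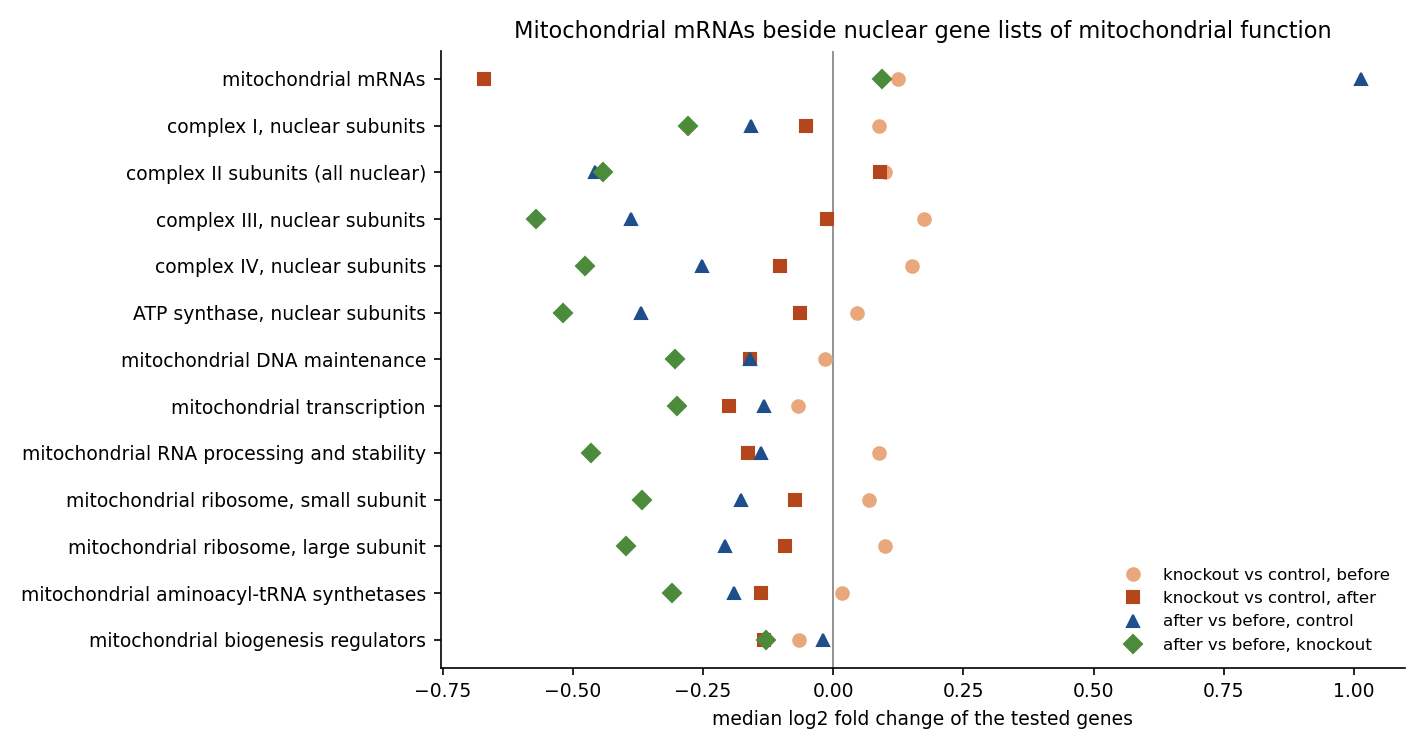
Median log2 fold change of the 13 mitochondrial messages and of nuclear gene lists in the comparisons made. With differentiation in control cells the mitochondrial messages have a median of 1.01, whereas the nuclear subunits of the same complexes have medians below 0.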

How the data were processed

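RNA from 12 libraries of HUDEP-2 cells was analysed from a table of raw counts of read pairs per gene, deposited by the authors without scaling. The counter was featureCounts 1.4.6-p4 per the file headers, run on exons of GENCODE release 22 for paired reads and grouped by gene, without a strand option. A different version, 1.2.6, stands in the submitters' processing notes, beside Trimmomatic, FastQC, Subread 1.6.2, edgeR 3.18.1 and build hg38. The same deposited table gives gene lengths in bases, used for levels per kilobase. Gene names and sequences came from GENCODE release 29, in which all 37 members have the same coordinates.

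Tests used edgeR 4.0.16 in R 4.3.3 on all 12 libraries: filterByExpr by group (17175 genes kept), TMM factors (0.883 to 1.07), a group-means model, the two-sided quasi-likelihood F-test, and Benjamini-Hochberg adjustment over all genes tested, with calls under 0.05. The standard error is the log2 fold change divided by the square root of F. CPM used TMM-scaled library sizes. Shares were compared by exact permutation over libraries. The edgeR steps were run on simulated counts for the knockout comparison after differentiation only, with the same spread for all genes. The other comparisons and the permutation tests were not simulated. Alternatives were DESeq2 1.42.0, libraries scaled by size alone, totals without mitochondrial, rRNA and globin genes, no filter, a replicate block, only the groups compared, each library left out, other denominators or sums for shares and, added after seeing the data, nuclear copies added to their parents.

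All mitochondrial genes were eligible to be named. Nuclear genes were named from up to 3 per list with the smallest adjusted p in each knockout comparison, with TFAM, POLRMT and LRPPRC, and nuclear copies where they held over 1% of their parent's counts. The members and the gene lists were chosen with earlier results of these data known. One erythroid marker is not reported here, and the erythroid sums leave it out.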

Additional observations from a re-analysis of the deposited data

Results flagged for a closer look

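The knockout effect differed between the stages for 11 mitochondrial messages, by the test of the difference itself (edgeR quasi-likelihood test, adjusted p under 0.05). After minus before differentiation, the log2 values were -0.85 for MT-ND1, -0.86 for MT-ND2, -0.87 for MT-ND4L, -0.85 for MT-ND4, -0.91 for MT-ND5 and -0.94 for MT-ND6 of complex I. They were -1.03 for MT-CYB of complex III, -0.84 for MT-CO2 and -0.54 for MT-CO3 of complex IV, and -0.92 for MT-ATP6 and -0.85 for MT-ATP8 of ATP synthase.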

How the results depend on the processing

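Of 150 results on single mitochondrial genes, 59 passed the test. Over 2815 alternative values, 2671 kept their side of the threshold, 67 lost the call, 77 gained one, and no called value changed sign. Over messages and tRNA genes, the count higher in knockout cells before differentiation was 1 and became 3 with no filter. Leaving out each library gave 0 to 1 genes lower with differentiation in control cells (0 with all libraries, 1 without control replicate 3 before differentiation) and 6 to 12 higher with differentiation in knockout cells (10 with all, 6 without knockout replicate 2 after differentiation). The tRNA share of counts with differentiation in knockout cells was 0.914 of that before, and 1.04 with TMM-scaled totals. Between genotypes before differentiation, without each library in turn, the ratio of tRNA shares ran from 0.872 to 1.02 and that of rRNA shares from 0.894 to 2.14, and the rRNA ratio with differentiation in control cells ran from 0.972 to 2.32. With all libraries, none of these ratios had separated groups. Without control replicate 1 before differentiation, control rRNA shares at that stage were 0.347 and 0.243%. They lay below all knockout shares at that stage (0.379 to 0.801%) and all control shares after it (0.494 to 0.941%). Without control replicate 3 before differentiation, control tRNA shares (0.0286 and 0.0285%) lay above all knockout shares at that stage (0.0221 to 0.0274%). The causes were not tested. The tRNA counts are the most limited by depth, and 7 tRNA genes were too low to test.

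With the replicate number as a block, 3 messages or tRNA genes were higher and 2, the tRNA genes MT-TN (-0.37, adjusted p = 0.0436) and MT-TC (-0.38, 0.0281), lower in knockout cells before differentiation (1 and 0 without the block), 17 were lower after it (12), 21 rose in control cells (18), 15 rose and 4 fell in knockout cells (10 and 3), and 13 were lower as a difference between stages (11). Same-numbered libraries correlated at -0.0179 to 0.251, with 10 of 18 pairs over 0.1, and differently numbered libraries at -0.250 to 0.182. These ranges overlap, and whether same-numbered libraries were paired samples cannot be told from them. For all 12 libraries, though, the mean correlation with their own number was above the mean over the other numbers pooled.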
